A study of Zea mays with 32 samples.

Results

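The root tip and the mature root were compared directly in maize (Zea mays) of the inbred line B73, wild type, at 7 days after germination. The tip is slice 1, the piece at the very end of the root, and the mature root is slices 13 to 16, the 4 pieces farthest from the tip. These hold 10 of the study's 32 RNA-seq libraries, 2 from slice 1 and 8 from slices 13 to 16. They were chosen by the slice number in the labels. A pair of roots, called A and B, was pinned side by side and sliced together, starting at the tip, into 16 pieces, so that each piece gave 1 library per root (n = 2 roots). The slices between the ends served as the background against which each end was placed, and slice 8 was left out of that background because its root A library stood apart. All groups share line, genotype and age, the labels name no treatment, and position along the root is the only difference they give.

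A root grows from its tip. The tip holds the root cap, which covers and protects the growing point and senses gravity, and the meristem, where cells divide. Cells left behind by the meristem elongate and then mature: root hairs form, water-conducting cells lay down thick walls and die, and the tissue takes up and moves water and nutrients. Slice 1 and slices 13 to 16 are therefore the youngest and oldest tissue in the set. Each slice holds all cell types of the root at that position, so fewer cells of a type and less RNA per cell cannot be told apart. The labels give each slice a number and no zone, and its thickness is not given in the sources used here. The files carry no gene names and none of the 39510 identifiers matched the reference table, so the presence of cap, meristem or vascular markers was not checked, and genes are described in groups by level and by position along the root, with 2 identifiers given per direction and comparison.

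The libraries of slice 1 held 1052117 counts in root A and 1139921 in root B. The 8 libraries of slices 13 to 16 held 1632831 to 3779171 counts (median 2281236). At a common depth of 1000000 counts, slice 1 was expected to show 13740 genes in root A and 17487 in root B, and slices 13 to 16 showed 17414 to 19821. Slice 1 of root A thus lay below every mature library, while slice 1 of root B fell among the lowest of them. The 10 most abundant genes took 22.2% of all counts in slice 1 of root A and 16.8% in root B, and 10.6% to 12.9% in slices 13 to 16. Over more genes root B was not more concentrated at the tip: 50% of the counts lay in 353 genes in slice 1 of root A and in 696 in slice 1 of root B, and in 562 to 680 genes in slices 13 to 16. Between roots A and B the coefficient of variation over genes of at least 10 CPM (counts per 1000000 counts, scaled by TMM) was 84% in slice 1 and 33.3% to 56.2% in slices 13 to 16. Slice 8 of root A, which enters the estimate of spread but neither end, was expected to show 8262 genes.

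**Figure D1:**
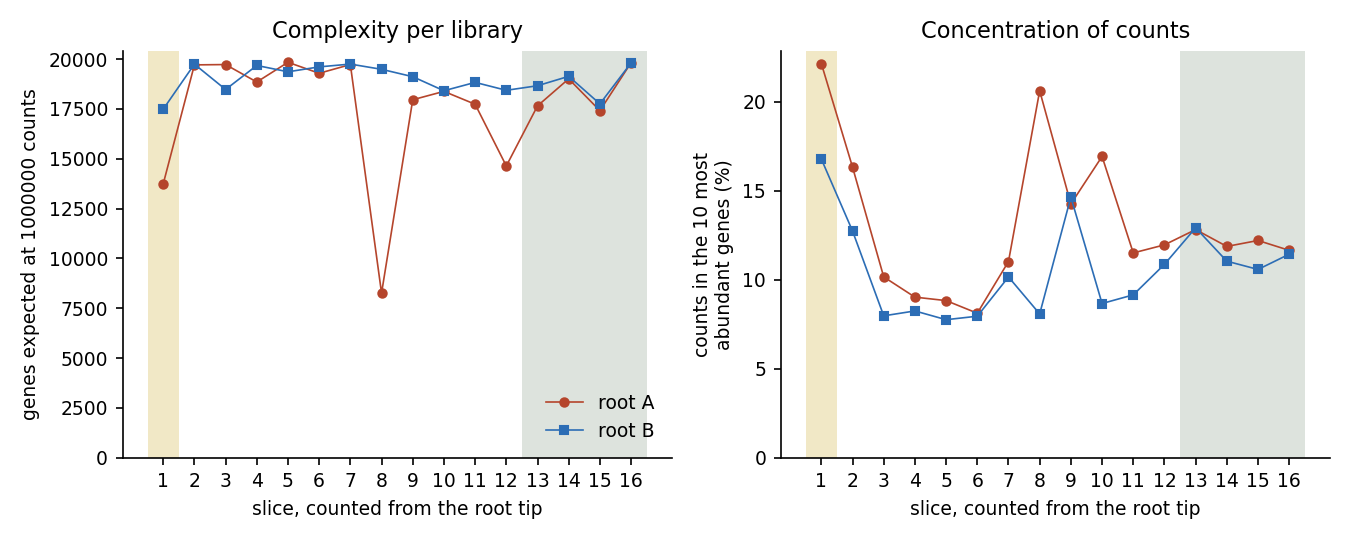
Number of genes expected at 1000000 counts (left) and percent of counts in the 10 most abundant genes (right), by slice from the tip, for root A (circles) and root B (squares). Slice 1 (left band) shows 13740 and 17487 genes, slices 13 to 16 (right band) 17414 to 19821, and slice 8 of root A the lowest value of 8262.

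The abundant transcripts of the tip and of the mature root were largely different genes. Of the 100 most abundant genes of slice 1 and the 100 most abundant of slices 13 to 16, 19 were the same. Within an end the roots shared far more: 63 of 100 between slice 1 of root A and of root B, and 84 of 100 between the mature slices of root A and of root B. The 100 most abundant genes of slice 1 took 37.8% of the counts of slice 1 in root A and 29.9% in root B, and 11% to 14.6% of the counts of slices 13 to 16. The 100 most abundant genes of slices 13 to 16 took 15.2% and 12.1% of the counts of slice 1 in roots A and B, and 24.6% to 28.1% in slices 13 to 16. A larger share of each list at its own end follows from how the list was chosen and is given as a description. Between the ends, the Spearman correlation of log2 CPM across the 19587 genes tested was 0.483 to 0.511 in root A and 0.570 to 0.589 in root B. It was 0.723 between the 2 libraries of slice 1 and 0.827 to 0.906 between the roots in slices 13 to 16. Genes are not independent replicates, libraries of unlike depth and complexity enter these values, and they describe likeness only.

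Of the 19587 genes tested, 2649 were higher in slice 1 than in slices 13 to 16 and 2836 were lower, 5485 in all, which is 28.0% of the genes tested. In each direction the share was 13.5% and 14.5%. The median log2 change was 2.82 among genes higher in slice 1 and −4.27 among genes lower there. Among the genes lower in slice 1, 978 had no count in either library of slice 1. With these set to the bound that 3 counts over both libraries allow, the median was −3.25. Among the genes higher in slice 1, 143 had no count in slices 13 to 16, and the median with these at their bound was again 2.82. Changes of at least 8-fold were found for 1224 genes that were higher in slice 1 and, with the genes at 0 at their bound, for 1626 that were lower. A call is an adjusted p under 0.05 in edgeR's quasi-likelihood test with Benjamini-Hochberg adjustment over all genes tested. The median change of all genes tested was −0.22 (log2) and lay at −0.00073 with DESeq2's size factors. With those, 3201 genes were higher in slice 1 and 2451 lower, so with that scaling more genes were higher than lower.

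The calls rest on 2 roots, and the 8 mature libraries are 4 neighbouring slices of each. When the counts of slices 13 to 16 were summed per root, which leaves 2 libraries against 2, 645 genes were higher in slice 1 and 1207 lower. Without slice 1 of root A, 1613 genes were higher and 1519 lower, a total of 3132. With a weight for each library by its spread, an alternative added after the data were seen, 1335 were higher and 1594 lower.

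The genes called took a large share of the RNA at each end. Genes called higher in slice 1 held 56.4% of all counts in slice 1 of root A and 44.9% in slice 1 of root B, and 8.38% to 12.7% in slices 13 to 16 (median 8.92%). Genes called lower in slice 1 held 6.77% and 9.13% of the counts of slice 1 in roots A and B, and 46.1% to 52.2% in slices 13 to 16 (median 49.4%). The groups of libraries did not overlap in either share, which follows from how these genes were chosen and is given as a description.

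**Figure D2:**
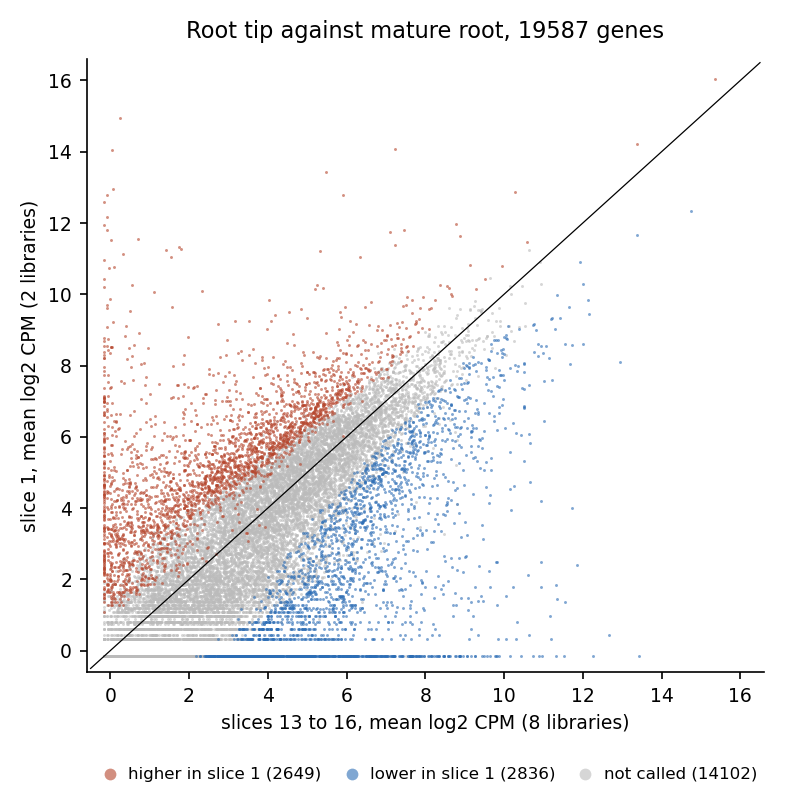
Mean log2 CPM of each of 19587 genes in slice 1 (vertical, 2 libraries) against slices 13 to 16 (horizontal, 8 libraries), with the line of equal level. Genes called higher in slice 1 (2649) lie above the line and genes called lower (2836) below it, apart from 5 whose means differ in the other direction. The row of points at the bottom is genes with no count in slice 1.

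Both roots carried the lower calls, and fewer of the higher ones, in the same direction; no test was made of that difference. Among genes called lower in slice 1, 2835 of 2836 were lower in each root, and 2748 (96.9%) were lower in both libraries of slice 1 than in each of the 8 mature libraries. Over all genes tested, 21.4% were separated in that way, and 66.4% differed in the same direction, whichever it was, in both roots. Agreement between the roots follows in part from how the called genes were chosen. Of the genes called lower, 978 had no count in slice 1, so they could not be higher there in either root. Among genes called higher in slice 1, 2265 of 2649 (85.5%) were higher in each root. Another 214 were higher by root A alone and 170 by root B alone, measured as the difference in mean log2 CPM within a root. Both libraries of slice 1 lay above each mature library for 1746 genes (65.9%), against 11.3% of all genes tested. The 2 libraries of slice 1 differed by at least 8-fold in 479 of the genes called higher and in 262 of those called lower. Over all 19587 genes tested they did so in 2944. The 978 genes called lower with no count in slice 1 could not differ in this way. Low complexity of slice 1 of root A goes with more genes at 0: 6722 of the genes tested had no count there and 3709 had none in slice 1 of root B, against 1117 to 2794 in the mature libraries. Its part in the lower calls was not tested. Fits without either library of slice 1 were run, but they leave 1 library at the tip. In them the effect of the library removed and that of having fewer libraries cannot be told apart.

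Differences were called more often among abundant genes. The level is the mean over the libraries of both ends, 8 mature and 2 of slice 1, so genes higher in the mature slices reach higher levels. The split by direction within a level follows in part from this weighting and is given as a description. Of 2080 genes that averaged 100 CPM or more, 228 were higher in slice 1 and 847 lower, so that 51.7% were called. Of 9461 genes at 10 to 100 CPM, 1458 were higher and 1695 lower (33.3% called). At 1 to 10 CPM, 926 of 6891 genes were higher and 294 lower (17.7% called). Among 1155 genes under 1 CPM, 37 were called, all of them higher in slice 1.

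Some genes were found at one end and not at the other. A group of 77 genes had at least 10 CPM in both libraries of slice 1 and no count in any of the 8 mature libraries, which together hold 19443530 counts. Their median level in slice 1 was 69 CPM and the highest was 6230 CPM. In the other direction, 426 genes had at least 10 CPM in each of the 8 mature libraries and no count in slice 1, where both libraries together hold 2192038 counts. Their median level in slices 13 to 16 was 60.3 CPM and the highest was 11053 CPM. A count of 0 allows a level of up to 1.42 CPM over the 2 libraries of slice 1 and 0.178 CPM over the 8 mature libraries (3 counts, counting error only), so absence is less certain at the tip. The 2 libraries of slice 1 were unlike in this respect: of the 7216 genes with at least 10 CPM in all mature libraries, 980 had no count in slice 1 of root A and 530 in slice 1 of root B. None of the 77 and none of the 426 genes was also at 0 in every library of slices 2 to 12, so each was detected somewhere between the ends.

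Genes with the largest changes are given one by one. They were the 2 highest and the 2 lowest log2 changes among genes with a mean level of 10 CPM or more, the same direction in each root and no overlap between the ends, criteria met by 1200 genes higher and 2454 genes lower in slice 1. Zm00001d041985 reached 17874 CPM at the tip of root A and 16081.5 CPM at the tip of root B. In slices 13 to 16 it ran from 0 to 0.66 CPM (median 0). The libraries held 35530 counts of it in slice 1 and 3 counts in slices 13 to 16, a ratio of 94614 after scaling (counting interval 32373 to 458814, edgeR, adjusted p = 3.63e-13). Behind the tip of root A it stood at 3410 CPM in slice 2, at 281 CPM in slice 4 and at 1.62 CPM in slice 6.

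Zm00001d041984, whose identifier is next in number, reached 40939.6 CPM at the tip of root A and 24476 CPM at the tip of root B. In slices 13 to 16 it ran from 0 to 1.27 CPM (median 0.16). It had 66335 counts in slice 1 and 7 counts in slices 13 to 16, a ratio of 75705 after scaling (counting interval 36741 to 188305, edgeR, adjusted p = 2.39e-12). Neither gene overlapped between the ends, and both were under 100 CPM from slice 5 on in either root. Whether these 2 genes are near-identical copies between which reads were divided could not be looked up.

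Zm00001d038598 had no count in slice 1 of either root. In slices 13 to 16 it ran from 8620 to 13517 CPM (median 10855), which makes it at least 7681-fold lower in slice 1 with a floor of 3 counts over both libraries of slice 1 (edgeR, adjusted p = 2.03e-09). Along root A it stood at 68.1 CPM in slice 7, 967 CPM in slice 9 and 6006 CPM in slice 12, so most of its increase lay in the hind part of the root. Zm00001d026163 had no count in slice 1 of either root and ran from 3611 to 8449.7 CPM (median 4355) in slices 13 to 16, at least 3474-fold lower in slice 1 (edgeR, adjusted p = 1.69e-15). It was already present in slice 2, at 61.5 CPM in root A and 31.2 CPM in root B, and by slice 9 stood at 4539 CPM in root A and 6230 CPM in root B, within the range of the mature slices. These 4 genes were called in every alternative run on them.

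**Figure D3:**
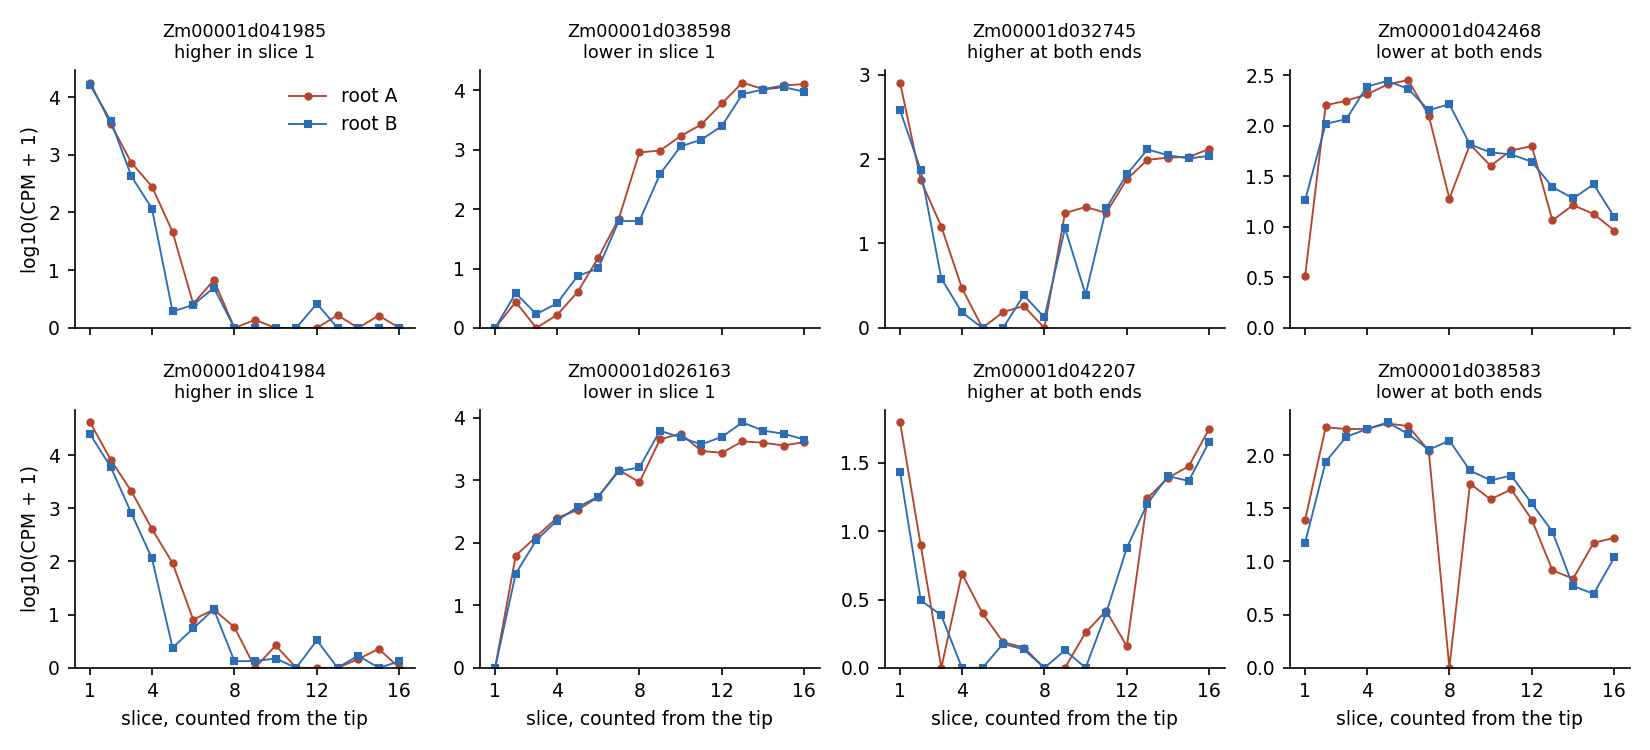
Level of 8 genes as log10(CPM + 1) by slice from the tip, in root A (circles) and root B (squares). From left to right the columns show 2 genes higher in slice 1 than in slices 13 to 16, 2 that were lower, 2 higher at both ends than in the middle and 2 lower at both ends. The first of these, Zm00001d041985, is at 17874 and 16081.5 CPM in slice 1 and at most 0.66 CPM in slices 13 to 16.

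A difference between the ends can arise close behind the tip, close to the mature slices or over the length of the root, and genes were sorted by where the middle lay. The middle is the mean log2 CPM of slices 2 to 7 and 9 to 12 (20 libraries), and its place was measured as a fraction of the distance from the mature level (0) to the tip level (1). Of the 2649 genes higher in slice 1, 1414 (53.4%) had a middle toward the mature level or past it, at a fraction of 0.25 or less. In 714 of these the middle lay between the ends, in 359 it was below the mature level by up to 0.25 of the distance and in 341 by more, and 160 of the 1414 were also higher at both ends than in the middle by the contrasts given further on. A further 879 (33.2%) were graded, and 356 (13.4%) had a middle toward the tip level or past it, at 0.75 or more (175 between the ends). Of the 2836 genes lower in slice 1 the order was different: 760 (26.8%) had a middle toward the mature level or past it (459 between the ends), 1452 (51.2%) were graded and 624 (22%) had a middle toward the tip level or past it (454 between the ends). Of the 760, 106 were also lower at both ends than in the middle. These classes are a description with no test, and 347 of the genes higher and 523 of those lower lay within 0.05 of a boundary between classes. The split also shifted with the library of slice 1 in use, since the tip level is that by which the genes were called. Over both directions the graded class was largest without the tip library of root A. Without that of root B, the class toward the mature level or past it was largest. The class toward the tip level was the smallest each time.

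The 1414 genes had medians of 5.81 log2 CPM in slice 1, 2.86 in the middle and 3.1 in the mature slices. Their median per library, centred per gene, was 2.91 at the tip of root A and 2.19 at that of root B. The values for roots A and B were 0.45 and 0.67 in slice 2 and −0.44 and −0.41 in slice 4, and in slices 13 to 16 they lay between −0.31 and 0.05. The 760 genes had medians per library of −3.41 at the tip of root A and −2.46 at the tip of root B. In slice 2 the values were −0.26 and −0.42, and in slice 4 they were 0.12 and 0.21. In both groups root A lay farther from the middle than root B in slice 1. The 624 genes had medians of 2.5 log2 CPM in slice 1, 2.63 in the middle and 6.11 in slices 13 to 16. Centred per gene, their median was −1.61 in slice 4 of either root, −0.01 and −0.09 in slice 9 of roots A and B, and 2.68 and 2.34 in slice 16. The 356 genes had higher medians in slices 2 to 6 than in slice 1, at 1.46 and 1.31 in slice 5 and 0.54 and 0.62 in slice 1 of roots A and B.

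**Figure D4:**
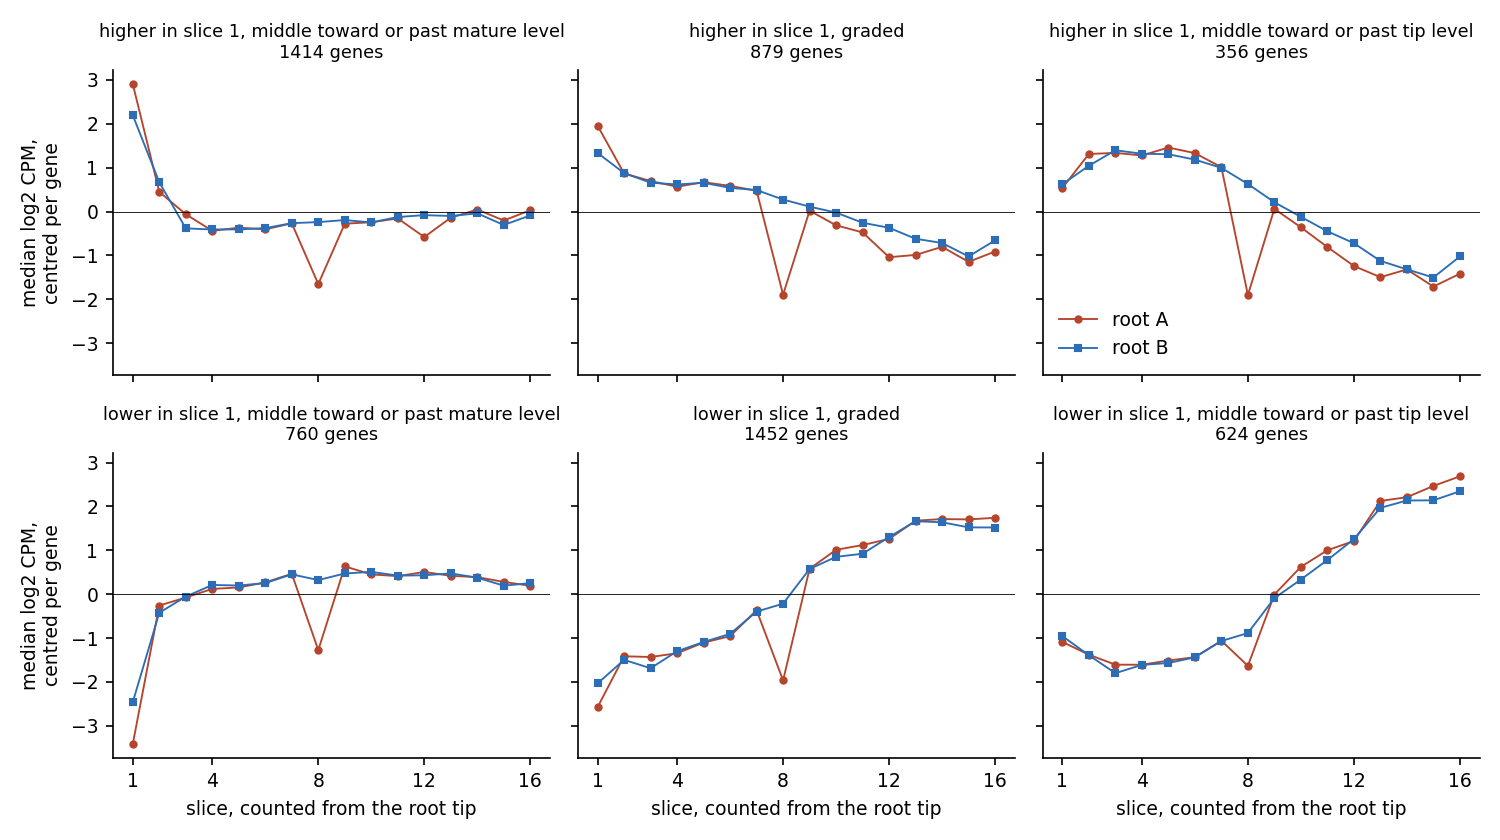
Median log2 CPM, centred per gene, by slice from the tip for genes higher (top) or lower (bottom) in slice 1 than in slices 13 to 16, split by where the middle of the root lay (columns), in root A (circles) and root B (squares). The median of the 1414 genes at top left is highest in slice 1 (2.91 and 2.19), and that of the 624 at bottom right is highest in slice 16 (2.68 and 2.34). The outer columns include genes whose middle lies past the level of that end (700 of the 1414 and 170 of the 624). The dip in slice 8 of root A is the library of low complexity.

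Most genes higher in slice 1 first lay nearer to the mature than to the tip level by slice 3. Genes lower there did so over more slices. By the mean of both roots, 1256 of the 2649 genes higher in slice 1 (47.4%) first lay nearer to the mature than to the tip level in slice 2, and 564 more in slice 3, which brings the share to 68.7%. Slices 4 to 7 added 286 genes and slice 9 added 252. Of the 2836 genes lower in slice 1, 871 (30.7%) first lay nearer to the mature level in slice 2, the largest number of any slice. Slice 3 added 228, and slices 4 to 7 added 577, which brings the share to 59.1%. Slice 9 added 574, which brings the share to 79.3%. Slice 8 was left out of this count, so slice 9 takes in what changed in slice 8 or 9. The tip level is taken from the same values of slice 1 by which these genes were called. Lying nearer to the mature level in slice 2 or 3 therefore follows in part from that choice. The libraries of slice 1 differed by at least 8-fold in 479 of the genes higher and in 262 of those lower. No test was made of the difference between the directions, and the counts are given as a description.

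To find what the tip and the mature root share against the rest of the root, each end was set against different middle libraries. Slice 1 was set against slices 3, 5, 7, 9 and 11 (10 libraries), and slices 13 to 16 against slices 2, 4, 6, 10 and 12 (10 libraries). In slice 1, 2680 genes were higher than in the middle (13.7% of the genes tested) and 1805 lower (9.22%), with median log2 changes of 2.78 and −3.06. In slices 13 to 16, 4514 were higher (23.0%) and 2958 lower (15.1%), with medians of 2.08 and −1.55. Scaled by DESeq2's size factors, slice 1 had 3315 higher and 1433 lower. Without slice 1 of root A, 1635 were higher there and 731 lower.

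A set of 807 genes was higher at both ends than in the middle. They are 30.1% of the genes higher in slice 1, where 23.0% of all genes tested were higher in slices 13 to 16, and 17.9% of those higher in slices 13 to 16. Their median log2 change was 2.69 in slice 1 and 1.92 in slices 13 to 16. They held 10.3% and 9.37% of the counts of slice 1 in roots A and B, a median of 7.35% in slices 13 to 16 and a median of 2.73% in the middle. In 693 of them each end lay above the middle in each root. Their median per library, centred per gene, was 1.93 at the tip of root A and 1.43 at the tip of root B. It was −1.31 and −1.37 in slice 4, close to 0 in slice 9 (−0.04 and −0.07), and 1.59 and 1.23 in slice 16. Apart from slice 8 of root A, the median was thus lowest in slices 3 to 6. In 18 genes (0.0919% of the genes tested) all 10 end libraries lay above all 20 middle libraries.

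A set of 745 genes was lower at both ends than in the middle, 41.3% of the genes lower in slice 1, where 15.1% of all genes tested were lower in slices 13 to 16, and 25.2% of those lower in slices 13 to 16. Their median log2 change was −2.62 in slice 1 and −1.4 in slices 13 to 16, and all 745 were lower at each end in each root. They held 2.64% and 3% of the counts of slice 1 in roots A and B, a median of 3.94% in slices 13 to 16 and a median of 17.3% in the middle. Their median per library was −2.18 at the tip of root A and −1.7 at the tip of root B, with 1.43 and 1.34 in slice 5. In slice 16 the roots had −1.26 and −0.31. In 14 genes (0.0715%) all 10 end libraries lay below all 20 middle libraries.

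Other genes moved in opposite directions at the ends. A set of 188 genes was higher than the middle in slice 1 and lower in slices 13 to 16. They are 7.01% of the genes higher in slice 1, below the 15.1% of all genes tested that were lower in slices 13 to 16, and 6.36% of the genes lower there. They held 13.9% and 9.56% of the counts of slice 1 in roots A and B and a median of 0.268% in slices 13 to 16. A set of 429 genes was lower than the middle in slice 1 and higher in slices 13 to 16. They are 23.8% of the genes lower in slice 1, close to the 23.0% of all genes tested that were higher in slices 13 to 16, and 9.5% of the genes higher there. They held 1.37% and 2.26% of the counts of slice 1 in roots A and B, and a median of 20.5% in slices 13 to 16. The numbers of genes shared by the ends moved with the tip libraries: without slice 1 of root A, 475 genes were higher and 342 lower at both ends, and without slice 1 of root B 486 were lower. Without either library of slice 8, 1157 were lower at both ends.

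**Figure D5:**
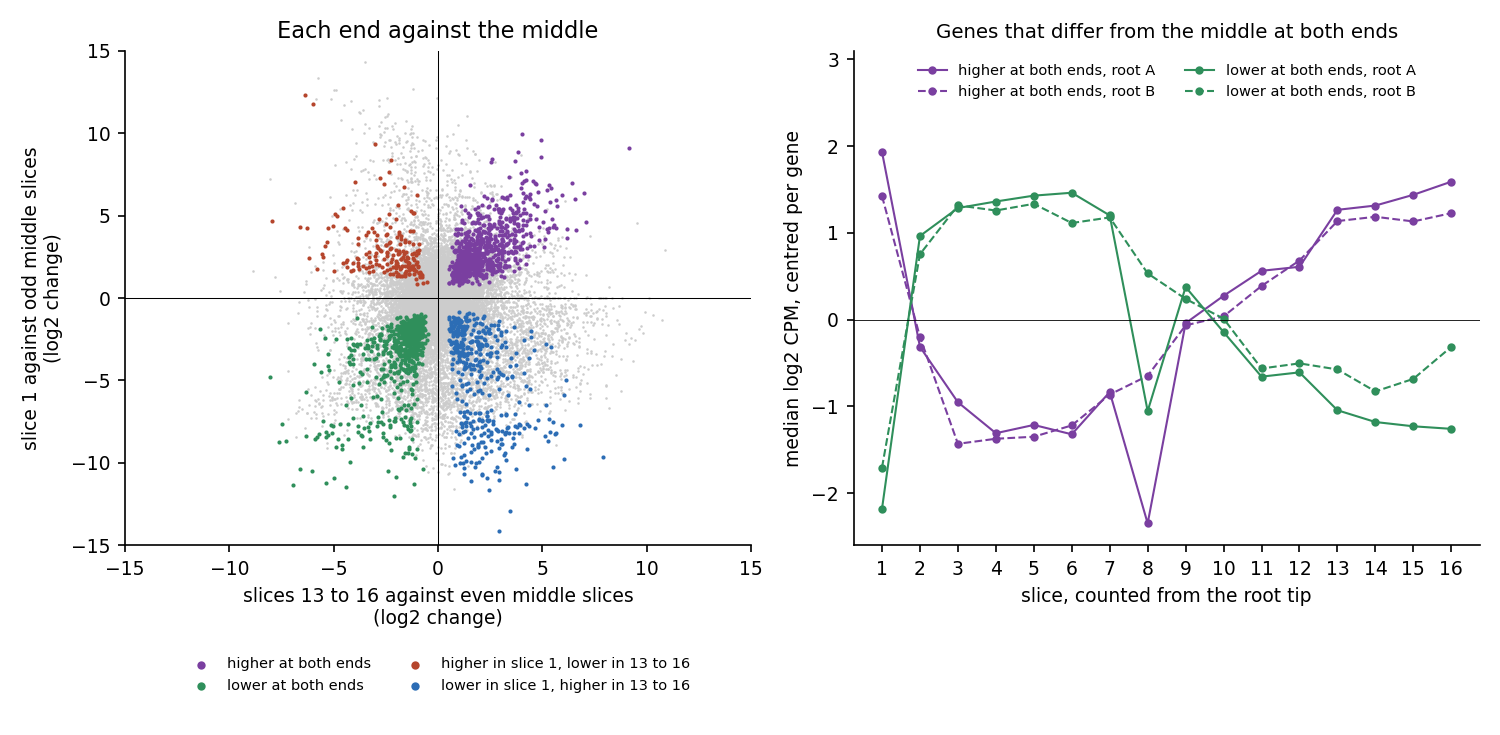
Left, log2 change of slice 1 against the odd middle slices (vertical) and of slices 13 to 16 against the even ones (horizontal) for each gene tested, with the genes called in both shown in colour (807 higher at both ends, 745 lower at both). Right, median log2 CPM, centred per gene, of the genes higher and lower at both ends by slice, in root A (solid) and root B (dashed); the genes higher at both ends lie at −1.31 and −1.37 in slice 4 and at 1.93 and 1.43 in slice 1.

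The genes of largest change among those that moved the same way at both ends were taken by the criteria used above applied to both contrasts, which 27 genes met among those higher and 7 among those lower. Zm00001d032745 held 806 and 377 CPM in slice 1 of roots A and B and 97 to 130 CPM (median 107) in slices 13 to 16, and had no count in slice 5 of either root. Its log2 change against the middle was 7.60 ± 0.48 in slice 1 (SE, edgeR, adjusted p = 1.25e-14) and 3.99 ± 0.40 in slices 13 to 16 (adjusted p = 7.43e-10, edgeR). The ends also differed from each other, with slice 1 higher by 2.42 ± 0.41 on the log2 scale (SE, edgeR, adjusted p = 2.37e-05). Zm00001d042207 held 61.6 and 26.3 CPM in slice 1 of roots A and B and 15 to 55.3 CPM (median 24) in slices 13 to 16. In the middle it was at most 6.93 CPM, in slice 2 of root A. Between the ends its log2 change was 0.71 ± 0.56 (SE, edgeR, adjusted p = 0.37).

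Zm00001d042468 held 2.24 and 17.2 CPM in slice 1 of roots A and B and 8.19 to 25.3 CPM (median 13.9) in slices 13 to 16. It was at 255 and 276 CPM in slice 5, above every library of either end. Its log2 change against the middle was −3.41 ± 0.68 in slice 1 (SE, edgeR, adjusted p = 0.000256) and −2.88 ± 0.33 in slices 13 to 16 (SE, edgeR, adjusted p = 1.45e-08). Between the ends its log2 change was −0.54 ± 0.69 (SE, edgeR, adjusted p = 0.613). Zm00001d038583 held 23.5 and 14 CPM in slice 1 of roots A and B, 3.97 to 18.1 CPM (median 8.58) in slices 13 to 16 and 198 and 202 CPM in slice 5. Its log2 change against the middle was −2.49 ± 0.72 in slice 1 (SE, edgeR, adjusted p = 0.0107) and −3.21 ± 0.41 in slices 13 to 16 (SE, edgeR, adjusted p = 1.05e-07). The call in slices 13 to 16 held in every alternative run on it. The call in slice 1 was lost without the tip library of root A (−2.91, adjusted p = 0.0686, edgeR), without that of root B (−2.15, adjusted p = 0.139, edgeR) and with weights for each library (−2.54, adjusted p = 0.0792, limma), with a change of like size each time.

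Likeness of the ends was harder to establish than difference. A set of 4922 genes had at least 10 CPM in each of the 10 libraries of the ends; of these 617 were called higher in slice 1 and 662 lower, and 74% were not called. The share called was thus near the 28.0% of all genes tested. The 95% interval of the log2 change lay within 2-fold in both directions for 213 of them, and for 364 (1.86%) of all genes tested. By mean level the share was 12% among 1155 genes under 1 CPM, where the median interval reached 7.84 log2 units to either side. It was 0.145% at 1 to 10 CPM and 6.78% over 100 CPM. The 364 thus include genes near the floor, whose intervals do not establish likeness. For 13738 genes (70.1%) the change was not called and its interval reached past 2-fold, so that with 2 libraries of slice 1 these genes can be called neither different nor alike. The median interval reached 1.65 log2 units to either side, and 0.95 among genes of at least 100 CPM. Of the 807 genes higher at both ends, 460 had an estimated difference between the ends under 2-fold and 28 an interval within it, while 160 were called higher in slice 1 than in slices 13 to 16 and 28 lower. Of the 745 lower at both ends, 339 had an estimated difference under 2-fold and 35 an interval within it, while 3 were called higher in slice 1 and 106 lower.

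Set against each mature slice alone, slice 1 gave like numbers, with the same 2 libraries of slice 1 in every comparison. Against slice 13, 1481 genes were higher in slice 1 and 2339 lower (19.5% of the genes tested). Against slice 14, 1387 were higher and 2160 lower (18.1%), against slice 15, 1857 and 2442 (21.9%), and against slice 16, 1509 and 2332 (19.6%). The count showed no steady course from slice 13 to slice 16.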

How the data were processed

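The authors deposited raw counts, all whole numbers, of 39510 gene identifiers in 32 libraries. Trimmomatic, kallisto 0.43 and DESeq2 are listed in the submitters' processing notes, with no role or order. Per the labels' protocols, RNA came from cut slices; the library kit was the Ovation RNA-Seq System V2, which amplifies cDNA from little RNA. Reads so amplified are not independent molecules, so intervals and floors cover counting error only. The sources used here do not give build, annotation, strand or rounding. If kallisto gave these counts, they are estimates that divide reads among near-identical genes. Of the identifiers, 39336 are of the Zm00001d and 174 of the GRMZM5G series, and 0 matched the reference of 49888 genes, so the gene lists by role were not used and no sequences could be given.

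Counts were scaled by TMM and tested with edgeR 4.0.16 in R 4.3.3 (filterByExpr by slice, minimum count 10, minimum total 15; robust quasi-likelihood fit, newer dispersion step), in 1 fit of all 32 libraries by slice (16 groups), with no block. Contrasts are slice 1 minus the mean of slices 13 to 16, and each end minus separate middle slices. Adjusted p-values are Benjamini-Hochberg over 19587 genes; SE is the size of the change over the square root of F. Log2 CPM used a prior count of 2. Replicates are 2 roots cut together. The p-values rest on the spread between the 2 libraries of a slice, pooled over all slices, and not on that of slice 1 alone. They take the 8 mature libraries as independent. Per the labels, a letter marks 1 root in every slice. Deviations of slice 1 and of a mature slice from their slice means correlated at 0.0624 to 0.0867 across genes. The same correlations among slices 13 to 16 are not given here. These values therefore do not bear on whether the mature slices of a root are independent. Alternatives were DESeq2 1.42.0 and limma 3.58.1 (voom with library weights) among others. Steps were tested on simulated data in which all slices shared 1 trend of spread. The simulation held no library of low complexity and no effect of root, so it does not cover those conditions. Members, contrasts and lists were chosen with earlier results of these data known. Genes were named by the largest changes among those called with at least a 2-fold change, a mean of at least 10 CPM, the same direction in each root and no overlap of the groups. 0 columns were left without a sample.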

Additional observations from a re-analysis of the deposited data

Results flagged for a closer look

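A test of whether the difference between slice 1 and slices 13 to 16 was unequal in the 2 roots called 175 genes (edgeR, 10 libraries, root by end as 4 groups, adjusted p under 0.05), with 2902 genes at an unadjusted p under 0.05. The change was higher in root B for 57 and lower for 118. In 118 of the 175 the difference between slice 1 and slices 13 to 16 had opposite signs in the 2 roots, and 83 of the 175 were among the 5485 genes called between the ends. Each root has 1 library of slice 1, which this test, added after the data were seen, assumes to vary like the mature libraries. The 2 libraries of slice 1 differed by a coefficient of variation of 84%, and the pairs of slices 13 to 16 by 33.3% to 56.2%, so a difference between the roots and a wider spread among libraries of slice 1 cannot be told apart, and the 175 calls are no evidence for the first. Slice 1 of root A was expected to show 13740 genes at 1000000 counts and slice 1 of root B 17487; the part of this in the 175 genes was not tested. In none of 15 measures over the 8 mature libraries did 1 library stand apart from the others.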

How the results depend on the processing

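Of 61 counts of genes under other settings, 52 were within 1.5 times the count given, as were 185 of 192 counts with 1 library left out, where the filter on low counts kept more genes. The replicate block (root as a term) gave 5871 genes between the ends, 2777 higher in slice 1 and 3094 lower, and it moved no other count by over 1.5 times and ended no call of a gene given by identifier. Between the ends the count of 5485 became 1852 with slices 13 to 16 summed per root, 1340 with the same and a replicate block, 3648 in a test against a 2-fold change and 2929 with weights for each library. Of the 1852, 1842 were among the 5485. With those weights 2033 genes differed between slice 1 and the middle, 449 were higher and 296 lower at both ends, and 1134 of the genes called between the ends had a middle toward the mature level or past it, against 2174. Without slice 8, 1157 genes were lower at both ends. Leaving out each library in turn gave 3132 to 6421 genes between the ends, 2366 to 5629 between slice 1 and the middle, 475 to 978 higher and 342 to 1146 lower at both ends, and 1294 to 2727 with such a middle. The lowest of each came without slice 1 of root A and the highest without a library of slice 8. The share of calls that were higher in slice 1 was 48.3% between the ends and 56.6% with DESeq2's size factors, and 59.8% and 69.8% against the middle. Of 508 values of the genes given by identifier, 505 kept direction and call; the other 3 are those given for Zm00001d038583. The 2 libraries of slice 1 limit every comparison with the tip.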

Other observations

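Identifiers of the GRMZM5G series, 174 of the 39510, held a smaller share of the counts at the tip. They took 0.609% of the counts in slice 1 of root A and 1.16% in slice 1 of root B, and 2.87% to 4.99% (median 4.3%) in slices 13 to 16, with no overlap between the ends. In slices 2 to 12 the share ran from 1.2% to 14.4%, the highest value being that of slice 8 of root A. The files do not say what these identifiers stand for.

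Similarity to the tip along the root had no simple course. In root B the Spearman correlation of slice 1 with the other slices, across genes, was 0.686 in slice 2, 0.599 in slice 3, 0.683 in slice 8 and 0.570 to 0.589 in slices 13 to 16. In root A it was 0.605 in slice 2, 0.495 in slice 4, 0.551 in slice 9 and 0.483 to 0.511 in slices 13 to 16, with 0.368 in slice 8. These values share the library of slice 1 within a root and describe likeness across genes only.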
